A study of Danio rerio with 4 samples.

Results

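The contacts described here join the high-coordinate flank of the zebrafish major alpha/beta-globin domain to the block just below it. A member was any pair of a forward and a reverse 5C primer on chromosome 3 (danRer7) with one primer midpoint above 55992000 and the other from 55962001 to 55992000. The position 55992000 is called the boundary below, the stretch above it the high flank and the stretch beneath it the middle block. The rule selected 606 of the 6699 primer pairs (9.05%), and it used primer positions only, no counts. They came from 34 primers in the high flank (14 forward, 20 reverse) and 36 in the middle block (17 forward, 19 reverse). Members spanned 0.805 to 65.2 kb, with a median of 28.5 kb.

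The study measured 5C read counts between 77 forward and 87 reverse primers over 139 kb (55888613 to 56027595). Blood of adult zebrafish gave 2 libraries, and blood of larvae aged 18 days post fertilisation gave 2 more. All cells were fixed in 2% formaldehyde, and no genotype, strain or treatment other than stage is given. Total counts were 65450 and 38494 in the adult libraries and 20801 and 6539 in the larvae libraries. The blood cell label could not be checked against marker genes, since no expression was measured.

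The domain holds the adult globin genes and the embryo-larval globin genes in separate blocks, and zebrafish change from one set to the other as they mature. In vertebrates such domains are often bounded by sites at which contacts from one side to the other are rarer than contacts of the same length on either side. Contact frequency also drops with distance along the chromosome, so a boundary is read from counts relative to those expected at the same distance. 5C reports such contacts by ligating a forward to a reverse primer that meet at a junction of religated DNA. Red blood cells of fish are nucleated, and their chromatin can be assayed directly from blood. No annotation of danRer7 was used here, so genes, exons and regulatory elements could not be placed on these primers, and the end of the region that carries each globin block was not determined.

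Contacts between the high flank and the middle block took a smaller share of the reads in adults than in larvae. The 606 members held 2372 and 1491 counts in the adult libraries and 1390 and 419 counts in the larvae libraries. Their share was 3.62% (95% exact binomial interval 3.48 to 3.77%) and 3.87% (3.68 to 4.07%) in adults, against 6.68% (6.35 to 7.03%) and 6.41% (5.83 to 7.03%) in larvae. The means were 3.75% ± 0.18 in adults and 6.55% ± 0.19 in larvae (SD over 2 libraries per stage), a difference of -2.80 percentage points that was larger than the spread within either stage. With 2 libraries a stage an exact permutation test cannot go below p = 0.333, and no test is given for single values such as this. These are counts over many cells, and a contact made by fewer cells cannot be told apart from one that each cell makes more rarely.

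The share also depends on pairs outside the members. The 3 pairs with the highest counts of the series, F165-R224, F165-R236 and F217-R164, are not members, and their share was higher in larvae and in the shallower library of each stage. With them left out of the total, members held 4.51% ± 0.34 in adults and 9.33% ± 0.63 in larvae (SD over 2 libraries per stage). Members with 1 primer of those pairs numbered 48. A lower adult share was not particular to members. Pairs within the middle block took 6.24% of that total in adults and 12.1% in larvae, and pairs within the high flank 3.32% and 7.19%. Pairs within the stretch of 20 kb just below the middle block, from 55942001, took 36.8% ± 0.026 of that total in adults and 21.1% ± 1.4 in larvae. Pairs joining the region below 55942001 to that stretch also took more in adults (17.7% and 12.2%). For pairs joining that region to the middle block the stages overlapped, at 7.81% and 7.88% in adults and 7.04% and 8.22% in larvae. All shares are of one total, so a class that takes more leaves less to the others.

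Most possible contacts were not seen. Reads were found for 143 of the 606 members in adults (23.6%, against 30.4% of all 6699 pairs) and for 118 in larvae (19.5%, against 16.6% of all pairs). Of these, 45 had reads in both stages, 98 in adults only and 73 in larvae only, and 390 members were at 0 in all 4 libraries. Of the members with adult reads 31.5% also had larvae reads, the same as the 31.5% over all pairs with adult reads. In the other direction members overlapped less than the series. Of the 118 members with larvae reads 45 also had adult reads, against 642 of 1111 over all pairs with larvae reads. Both libraries of the stage held reads for 131 members in adults and for 85 in larvae. A contact with no read may still have had up to 3 counts, a level of 28.9 CPM (counts scaled to a library total of 1000000) over both adult libraries and 110 CPM over both larvae libraries. The limit for a contact with no reads was thus higher in larvae.

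Some members repeated each other's counts. Where a forward and a reverse primer lie within 200 bp of each other, 2 such couples give 2 pairs that join the same places in opposite orientation, called mirror pairs here. In the whole series 98 of 141 mirror pairs with reads had the same count in all 4 libraries, and among members it was 15 of 18. The strongest larval contact was one of these, with counts of 35 and 27 in adults and of 109 and 33 in larvae for both F215-R268 and F269-R216. The second copies of equal mirror pairs held 4.38% and 3.89% of member counts in adults and 17.2% and 13.4% in larvae. Such pairs are therefore not independent of each other, and the cause of the equal counts was not tested. With each equal mirror pair counted once, the members' share was 3.69% ± 0.18 in adults and 5.69% ± 0.013 in larvae (SD over 2 libraries per stage).

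**Figure D1:**
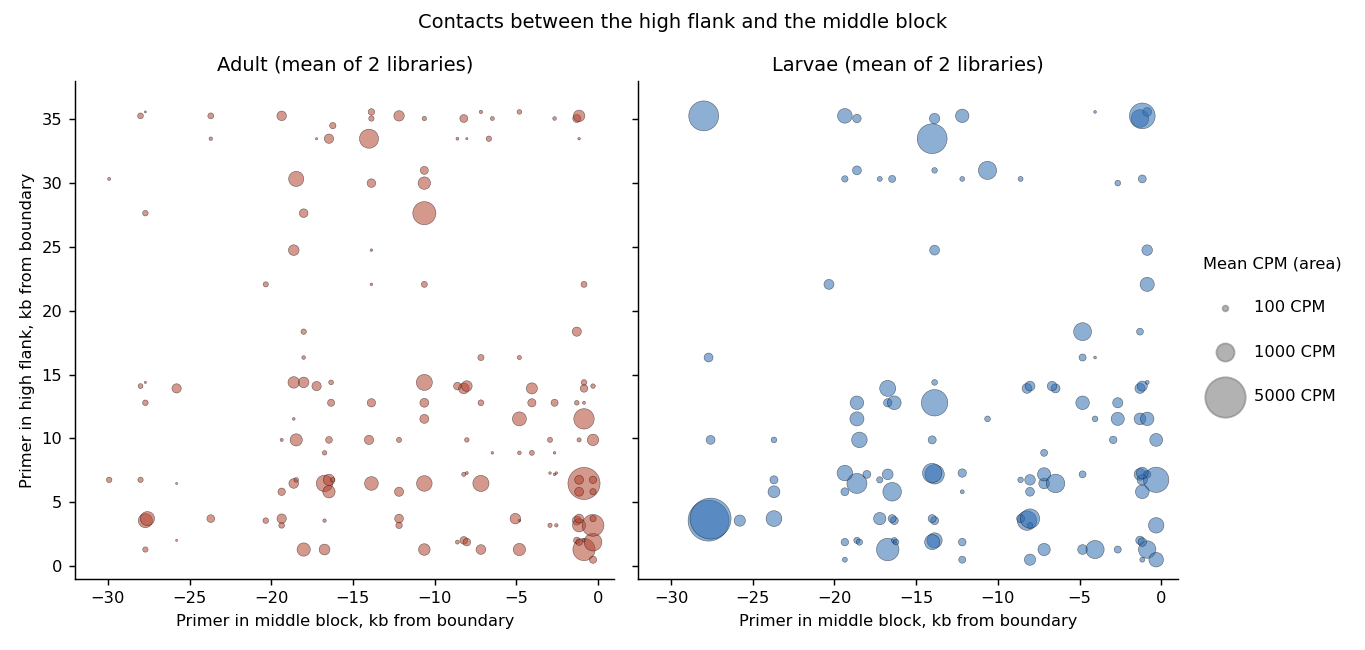
Mean CPM of each member with reads, by the position of its primer in the middle block (x axis, kb from the boundary) and in the high flank (y axis, kb from the boundary), in adults (left) and larvae (right). Circle area is the mean of 2 libraries. The largest adult circle lies near the boundary (F261-R272) and the largest larvae circles lie 20 to 30 kb below it (F215-R268 and F269-R216).

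The contacts lay in different places in the 2 stages. Pairs with both primers within 10 kb of the boundary held 33.5% and 34.7% of member counts in adults, against 25.3% and 21.2% in larvae. In mean CPM per pair this region was not higher in adults, at 108 and 120 in adults and 151 and 122 in larvae. Pairs that joined the far end of the middle block, 20 to 30 kb below the boundary, to the first 10 kb of the high flank held 4.76% and 4.90% in adults, against 20.0% and 17.9% in larvae. In mean CPM per pair this second region had 34.5 and 37.9 in adults and 267 and 229 in larvae, the widest contrast of the 9 regions into which the members were divided by position. Of that larval signal a large portion was a single contact: F215-R268 and its mirror pair held 2.95% and 3.62% of all member counts in adults and 15.7% and 15.8% in larvae.

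Single contacts differed in both directions, as judged by the edgeR quasi-likelihood test over all 679 pairs of the series that passed a filter on low counts. Of the 606 members 44 were tested, and 172 with reads were removed by the filter. After Benjamini-Hochberg adjustment at 0.05, adult counts were higher for 13 members and larvae counts for 20, while 11 did not pass. Of all 679 pairs 70.1% passed, 46.1% as higher in adults and 24.0% as higher in larvae. The members' median log2 change, adult minus larvae, was -0.89, against 1.08 over all 679 pairs, and with library totals in place of TMM factors it was -1.07 against 0.91. The sign of the members' median depended on which pairs were tested. It was positive without a filter (0.91 over 216 members, against 3.10 over all pairs), without larvae replicate 1 (5.91 against 6.17) and without larvae replicate 2 (0.85 against 3.20). Under each of these settings it was below the median of all pairs tested. The libraries of the stages did not overlap for 36 of the 44 members, against 82.8% of all tested pairs. Since the filter keeps a pair that is high in one stage only, these counts describe the pairs that passed and not all members.

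The adult-higher contacts were nearly all absent from the larvae reads. Of the 13, 12 had 0 counts in both larvae libraries. The number of such contacts over all pairs tested was not counted. Over all pairs tested 313 of 679 were higher in adults, against 56 of 372 in a fit limited to pairs with reads in both stages. For members it was 13 of 44, against 0 of 25 in that fit. The larvae libraries were also the shallower ones. The strongest was F261-R272, which joined 55991124-55991153, the forward primer site nearest below the boundary, to 55998456-55998485 over 7.33 kb. It had 166 and 146 counts in adults and 0 and 0 in larvae (3165 ± 888 CPM in adults, SD, n = 2). That is at least 28.8-fold higher in adults, taking 3 counts over both larvae libraries as the limit (adjusted p = 7.76e-13, edgeR). Both adult libraries held this contact and neither larvae library did.

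F234-R297 reached further, from 55981354-55981383 to 56019632-56019661 over 38.3 kb. It had 75 and 82 counts in adults and 0 and 0 in larvae, at least 14.9-fold higher in adults (adjusted p = 3.29e-07, edgeR). F265-R262, which joined 55993859-55993888 to 55991676-55991705 over 2.18 kb, had 60 and 39 counts in adults and 0 and 0 in larvae, at least 8.79-fold higher (adjusted p = 5.63e-05, edgeR). The next 5 by size, F225-R272, F234-R286, F234-R272, F303-R222 and F250-R278, were likewise at 0 in both larvae libraries and at least 5.47-fold to 7.66-fold higher in adults. F234 and R272 thus recur among these contacts, though R272 was also part of F242-R272, which was higher in larvae. F261-R278 was the adult-higher contact with larvae reads, 70 and 57 counts in adults against 1 and 7 in larvae (edgeR log2 change 1.92 ± 0.81 SE, adjusted p = 0.0269). Its larvae libraries differed widely, 48.1 and 1071 CPM, and without larvae replicate 1 its log2 change was 0.41 and did not pass.

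The larvae-higher contacts included both strong contacts seen in each stage and contacts with no adult reads. The adult-higher contacts spanned 2.18 to 48.8 kb (median 19.3 kb) and the larvae-higher ones 0.805 to 63.3 kb (median 25.9 kb), a difference in distance that was not tested. F215-R268 joined 55964285-55964314 to 55995544-55995573 over 31.3 kb. It had 618 ± 118 CPM in adults and 5143 ± 137 CPM in larvae (SD over 2 libraries per stage), a log2 change of -2.87 ± 0.49 SE (adjusted p = 3.4e-08, edgeR), and its mirror pair had equal counts. All 4 libraries held this contact, and the lowest larvae value was above the highest adult value.

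F311-R214 joined the outer ends of the high flank and the middle block, 56027257-56027286 and 55963988-55964017, over 63.3 kb. It had 5 and 5 counts in adults and 76 and 12 in larvae (edgeR log2 change -4.62 ± 0.73 SE, adjusted p = 2.28e-09). F232-R281 spanned 26.7 kb, with 11 and 10 counts in adults and 51 and 12 in larvae (edgeR log2 change -3.18 ± 0.72 SE, adjusted p = 4.67e-05). In CPM the larvae libraries lay above both adult libraries for these contacts too. The 8 larvae-higher members with no adult reads included F237-R268 and its mirror pair F269-R239, with 29 and 6 counts in larvae. F232-R274 and its mirror pair F275-R231 had 32 and 5 counts in larvae, and all 4 were at least 39.9-fold higher in larvae. F242-R272, F250-R291, F275-R220 and F221-R281 were at least 19.6-fold to 36.7-fold higher in larvae. Of the 20 larvae-higher members 6 belonged to equal mirror pairs. With each equal mirror pair counted once 13 members were higher in adults and 17 in larvae, of 40 tested. Over all pairs it was then 283 and 157 of 641.

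**Figure D2:**
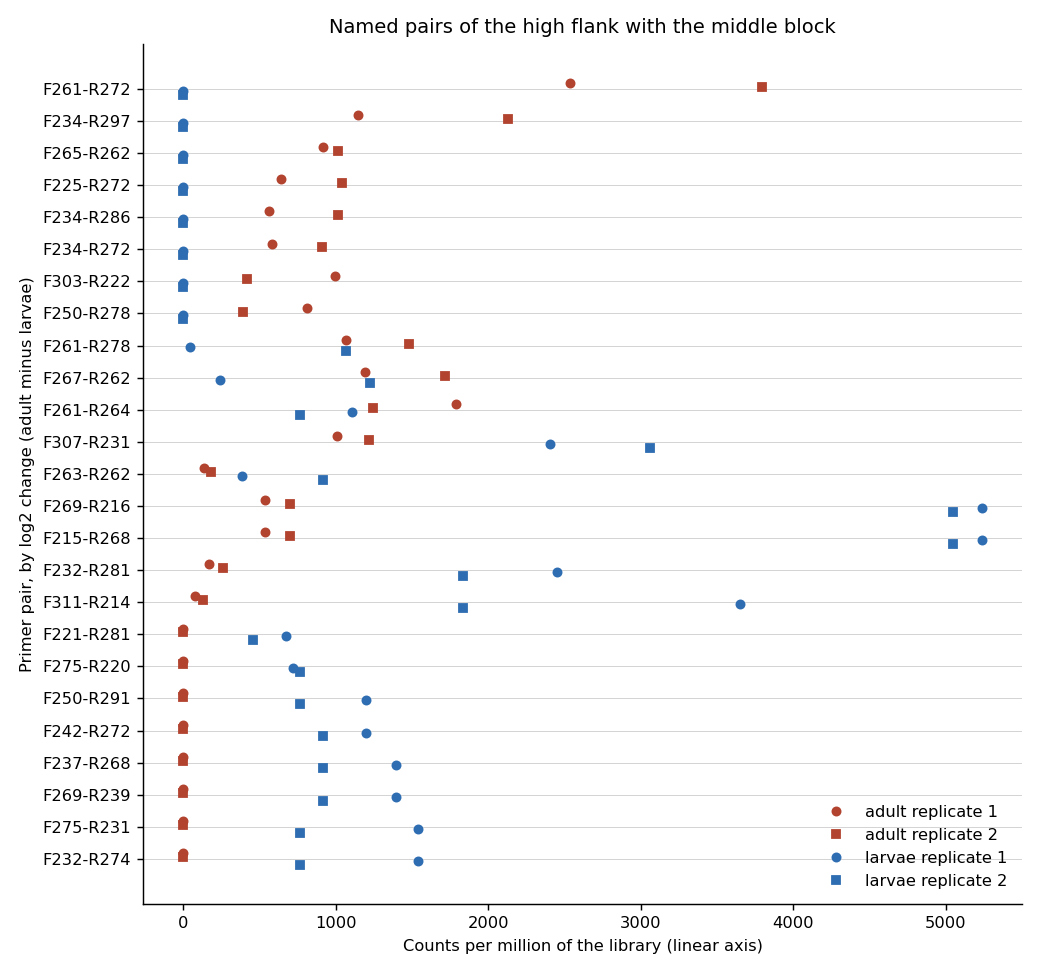
CPM (linear axis) of the named members in each adult and larvae library, ordered by log2 change from the most adult-higher at the top. F261-R272 lies at 2536 and 3793 CPM in adults and at 0 in larvae, and F215-R268 lies at 535 and 701 CPM in adults and at 5240 and 5047 CPM in larvae.

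Not all strong contacts passed the test. F307-R231, over 47.5 kb, had 66 and 47 counts in adults and 50 and 20 in larvae (edgeR log2 change -1.08 ± 0.52 SE, adjusted p = 0.0532). F267-R262 had 78 and 66 counts in adults and 5 and 8 in larvae (edgeR log2 change 1.5 ± 0.71 SE, adjusted p = 0.0502). F261-R264 had 117 and 48 counts in adults and 23 and 5 in larvae (edgeR log2 change 0.82 ± 0.61 SE, adjusted p = 0.225). In CPM the stages overlapped for F267-R262, where larvae replicate 2 had 1223 CPM and adult replicate 1 had 1192 CPM.

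The number of called members depended on single libraries, as did the number of all pairs called. Leaving out 1 library leaves 1 in its stage and changes which pairs pass the filter. The fit on all 4 libraries tested 44 members. Without adult replicate 1 or 2 it was 50 and 54, and without larvae replicate 1 or 2 it was 65 and 79. The members' median log2 change was -1.56 without adult replicate 1, against 0.45 over all pairs. Without adult replicate 2 it was -1.36 against 0.59. F261-R272, F234-R297, F265-R262, F215-R268 and F311-R214 passed without each of the 4 libraries in turn. F232-R281 did not pass without either adult library (adjusted p = 0.0734 and 0.0639, edgeR), and F221-R281 did not either (0.0795 and 0.122). F225-R272, F234-R286 and F234-R272 did not pass without adult replicate 2 or larvae replicate 1, F303-R222 and F250-R278 did not without larvae replicate 1, and F275-R220 did not without adult replicate 2 (adjusted p = 0.0537, edgeR). F261-R278 passed without larvae replicate 2 but not without any other library.

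Contacts among the primers nearest the boundary summed to more in adults than in larvae. The nearest primers on the sides of the boundary lie 0.775 kb apart. The 5 closest primers on each side gave 13 pairs over 0.805 to 5.74 kb, of which 9 had reads in adults and 6 in larvae. They summed to 4981 and 4936 CPM in adults (326 and 190 counts) and to 2308 and 3364 CPM in larvae (48 and 22 counts). In CPM both adult libraries lay above both larvae libraries. Of 5 that were tested, F265-R262 and F267-R260, the second named after its values were seen, were higher in adults. F267-R260 had 44 and 15 counts in adults and 0 and 0 in larvae. F263-R262, the shortest member at 0.805 kb, was higher in larvae, with 9 and 7 counts in adults and 8 and 6 in larvae (edgeR log2 change -1.61 ± 0.66 SE, adjusted p = 0.0237). The call for F263-R262 was lost without any 1 of the 4 libraries (adjusted p = 0.163 to 0.535, edgeR). F311-R211, the longest member at 65.2 kb, was at 0 in all libraries.

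Summed over all partners on the other side of the boundary, more primers were higher in larvae than in adults. For each primer the counts with every primer of 1 block were summed and all 527 such sums of the series were tested. Across the boundary 56 sums were tested, of which 24 passed as larvae-higher, 8 passed as adult-higher and 24 did not pass (edgeR, Benjamini-Hochberg). Over all 527 sums 32.1% were higher in adults and 23.7% in larvae, 55.8% in either direction. The median log2 change was -1.05 for the 56 sums, adult minus larvae, against 0.17 for all 527. Each read enters the sum of 1 forward and 1 reverse primer, so the 2 sides of the boundary are not independent. On the high flank 5 sums were higher in adults and 11 in larvae, and in the middle block it was 3 and 13.

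The 8 larvae-higher sums of lowest adjusted p included 4 primers that lie close together in the high flank. R268 and F269, which lie 3.56 to 3.72 kb above the boundary, had log2 changes of -2.76 ± 0.34 and -1.97 ± 0.31 SE with the middle block (adjusted p = 7.89e-14 and 5.24e-09, edgeR). R268 had 69 and 38 counts in adults and 158 and 43 in larvae, which was 1021 ± 47.4 CPM in adults and 7086 ± 721 CPM in larvae (SD over 2 libraries per stage). R274 and F275, a little over 7 kb above the boundary, had log2 changes of -5.36 ± 0.72 and -5.35 ± 0.73 SE (adjusted p = 4.5e-12 and 1.29e-11, edgeR). R274 had 3 and 4 counts in adults against 73 and 16 in larvae. These primers sit within a stretch of 3.76 kb of the high flank, and each of them took part in at least 1 equal mirror pair. The other primers of that stretch did not all go the same way. R272 was higher in adults (edgeR log2 change 1.28 ± 0.32 SE, adjusted p = 0.00031). F273 was higher in larvae (-1.47 ± 0.47 SE, adjusted p = 0.0043, edgeR), and F271 did not pass (-1.04 ± 0.48 SE, adjusted p = 0.0526, edgeR). Most larvae counts of R268 and F269 came from F215-R268 and its mirror pair F269-R216, with 109 and 33 larvae counts each. F232-R274 and its mirror pair F275-R231, with 32 and 5 larvae counts each, held part of those of R274 and F275.

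The other 4 lay at the far end of the middle block, inside it and at the outer edge of the high flank. R216 and F215, near the far end of the middle block, had log2 changes of -3.11 ± 0.41 and -2.51 ± 0.39 SE with the high flank (adjusted p = 4.5e-12 and 2.34e-09, edgeR). F311, at the outer edge of the high flank, had 66 and 56 counts with the middle block in adults and 125 and 39 in larvae (edgeR log2 change -2.25 ± 0.35 SE, adjusted p = 4.77e-09). F242 had 4 and 3 counts with the high flank in adults and 29 and 8 in larvae (edgeR log2 change -4.19 ± 0.71 SE, adjusted p = 4.86e-08). R216 and F215 are the partner primers in F269-R216 and F215-R268, which held most of their larvae counts. The sums of R216, F215, R268 and F269 thus rest largely on the same contact. F311-R214 held 76 and 12 of the larvae counts of F311, and F242-R272 held 25 and 6 of those of F242. All of these larvae-higher sums passed without each of the 4 libraries in turn.

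The adult-higher sums were 8 in all and lay in both blocks, and some of them shared a contact. R297 had 99 and 93 counts with the middle block in adults and 0 and 0 in larvae, at least 17.9-fold higher in adults (adjusted p = 7.07e-08, edgeR). F234 had 268 and 221 counts with the high flank in adults and 24 and 7 in larvae (edgeR log2 change 2.16 ± 0.39 SE, adjusted p = 4.71e-07). R286 had 96 and 76 counts with the middle block in adults against 3 and 1 in larvae (edgeR log2 change 3.56 ± 0.82 SE, adjusted p = 8.03e-05). F261, R272, R302, F267 and F223 were the remaining 5. The contact F261-R272, with 166 and 146 adult counts, enters the sums of both F261 and R272. Likewise F234-R297, with 75 and 82 adult counts, enters those of F234 and R297. F261 took 16.0% and 18.1% of all member counts in adults, against 4.60% and 4.30% in larvae, and F234 took 11.3% and 14.8% in adults, against 1.73% and 1.67% in larvae.

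The numbers of called sums also moved with single libraries, both across the boundary and over all sums. The median log2 change across the boundary was -1.18 without adult replicate 1, against 0.12 over all sums tested. Without adult replicate 2 it was -0.78 against 0.094. R302 and F267 did not pass without adult replicate 1, adult replicate 2 or larvae replicate 1. F223 did not pass without either adult library, and F261 and R272 did not pass without adult replicate 2 (adjusted p = 0.180 and 0.226, edgeR).

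**Figure D3:**
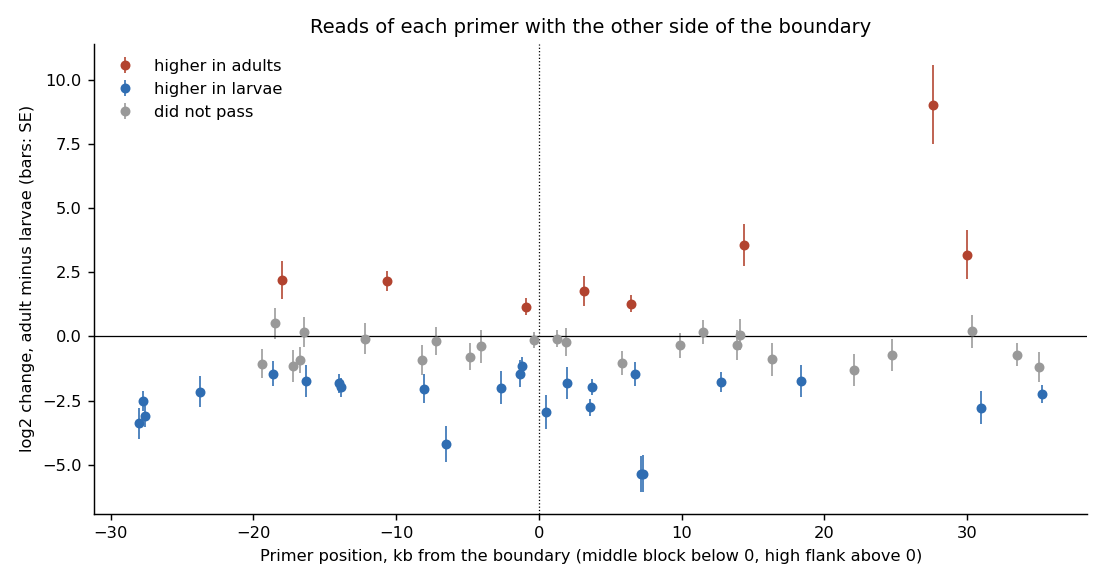
Log2 change, adult minus larvae, of each primer's counts summed over the other side of the boundary, by primer position in kb from the boundary (middle block below 0, high flank above 0). Bars are standard errors, red points were higher in adults, blue points higher in larvae and grey points did not pass. The 24 larvae-higher points lie on both sides of the boundary, and the highest red point is R297, which had no larvae reads.

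Relative to all pairs of the same distance, contacts across the boundary lay lower in adults than in larvae, and below the expected count in adults. The expected count of a pair was the mean of all pairs of the series in the same distance class and library, members included, without the 3 pairs of highest count. The log2 ratio of the summed member counts to their expected sum was -1.03 and -0.87 in adults, against 0.13 and 0.24 in larvae. The mean was 51.7% of expected in adults and 114% in larvae. On the log2 scale this was -0.95 ± 0.11 in adults and 0.19 ± 0.079 in larvae (SD over 2 libraries per stage), a difference of -1.14 that was larger than the spread within either stage. With expected counts that also carry each primer's total the difference was much smaller, at -0.11 (0.38 in adults and 0.49 in larvae). The larval direction depended on the 3 pairs of highest count: with them kept in, members were at 38.5% of expected in adults and 64.9% in larvae (log2 -1.41 and -1.34 in adults, -0.54 and -0.71 in larvae).

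The stage difference varied with distance. In the class from 0 to 10 kb observed over expected was 0.466 and 0.510 in adults and 0.534 and 0.567 in larvae, so both stages lay below the expected count. From 10 to 20 kb it was 0.419 and 0.467 in adults against 1.01 and 1.11 in larvae. From 20 to 30 kb it was 0.599 and 0.721 in adults against 1.75 and 1.83 in larvae, and from 30 to 40 kb it was 0.397 and 0.461 against 1.44 and 1.42. In these 3 classes the adult libraries lay below the expected count and the larvae libraries above it. From 40 to 50 kb the values were 0.992 and 1.01 in adults and 1.03 and 1.91 in larvae. From 50 to 60 kb, where larvae held 8 and 9 counts, they were 0.245 and 0.251 in adults and 0.151 and 0.688 in larvae. From 60 to 70 kb, with 15 pairs, they were 0.180 and 0.337 in adults against 5.28 and 3.03 in larvae, the widest gap of the 7 classes. Every larvae library lay above every adult library in all classes but that from 50 to 60 kb.

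Tested with the expected count as an offset, 4 of the 7 distance classes of members were higher in larvae (edgeR, Benjamini-Hochberg over 58 classes of all block pairings). The number higher in adults was 0, and the 4 called classes were also the ones with an unadjusted p under 0.05. Of all 58 classes 34.5% were higher in larvae and 22.4% in adults. The log2 change relative to distance, adult minus larvae, was -0.17 ± 0.23 SE from 0 to 10 kb (adjusted p = 0.576, edgeR). It was -1.25 ± 0.22 SE from 10 to 20 kb, -1.44 ± 0.22 SE from 20 to 30 kb and -1.75 ± 0.22 SE from 30 to 40 kb (adjusted p = 5.6e-07, 5.73e-09 and 2.03e-11, edgeR). From 40 to 50 kb it was -0.40 ± 0.27 SE (adjusted p = 0.204, edgeR) and passed as higher in larvae without larvae replicate 1 (-0.93). The class from 60 to 70 kb (15 pairs) was called with a log2 change of -4.21 ± 0.67 SE (adjusted p = 3.57e-08, edgeR), and all its larvae counts, 76 and 12, belonged to F311-R214. The 4 called classes passed without each of the 4 libraries in turn. With expected counts that also carry each primer's total, the classes from 10 to 20 kb and from 20 to 30 kb no longer passed (log2 changes -0.31 and -0.37, adjusted p = 0.0892 and 0.0568, edgeR), and the class from 0 to 10 kb passed as higher in adults (0.91, adjusted p = 0.00189, edgeR).

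A fit of the same classes on library totals alone, without the expected counts, also gave 4 of 7 classes higher in larvae. Of all 58 classes 37.9% were higher in larvae and 13.8% in adults. These totals left out the 3 pairs of highest count. With those pairs kept in, 4 of 7 were again higher in larvae, and over all 57 classes then tested 18 were higher in larvae and 10 in adults. With TMM factors in place of library totals 3 of 7 were higher in larvae, without the class from 10 to 20 kb (adjusted p = 0.0856, edgeR). Over all 58 classes 10 were then higher in adults and 8 in larvae, against 8 and 22 with library totals. TMM moved the median of all 58 by 0.30 on the log2 scale, to 0.16 against -0.14. DESeq2 with its own size factors, also without the expected counts, gave 4 of 7 classes higher in larvae and 0 in adults. Over all 58 classes it gave 19 higher in larvae and 14 in adults. In the fit on library totals the calls of the member classes were lost without either adult library, as were those of all other classes. The members' median log2 change in that fit was -0.99 without adult replicate 1, against -0.26 over all classes. Without adult replicate 2 it was -1.11 against -0.32. One contact weighed on the class from 30 to 40 kb. With F215-R268 and its mirror pair left out, its log2 change relative to distance was -0.94, which still passed, and the larvae members as a whole had a log2 observed over expected of -0.0076, against -0.99 in adults.

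**Figure D4:**
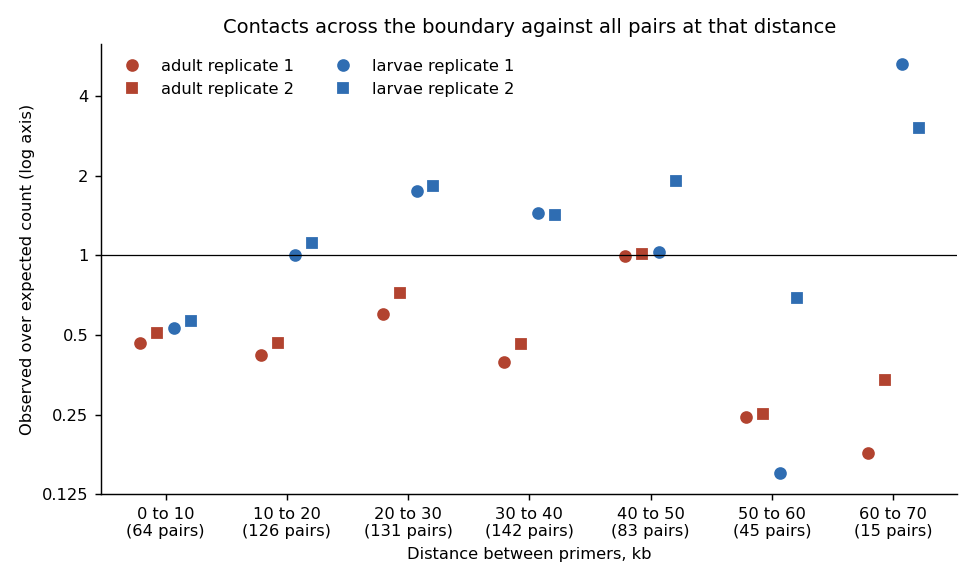
Observed over expected counts of the members (log axis) by distance between primers in classes of 10 kb, with 1 point for each adult and larvae library and the number of pairs in each class. The line at 1 marks the count expected from all pairs at that distance. From 10 to 40 kb the adult points lie between 0.397 and 0.721 and the larvae points between 1.01 and 1.83.

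The adult depletion was of like size across the boundary and within the middle block. On the same scale, the mean log2 observed over expected in adults was -0.95 across the boundary, -0.94 within the middle block and -1.44 within the high flank. In larvae it was 0.19 across the boundary, 0.05 within the middle block and -0.30 within the high flank. Within the stretch of 20 kb below the middle block it was 1.43 in adults and 0.65 in larvae, and those pairs enter the expected count of every class they reach.

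Set against pairs within the 2 blocks only, at 5 to 30 kb, member counts had log2 ratios of 0.01 and 0.10 in adults and 0.65 and 0.35 in larvae. This was 104% of the expected count in adults and 141% in larvae on average. The value depended on the pairs and distances used. Without the strongest pairs both adult libraries lay below the expected count (log2 -0.13 and -0.12, 91.5%), and the larvae libraries above it (0.76 and 0.29). From 5 to 20 kb it was -0.29 ± 0.11 in adults and 0.0013 ± 0.32 in larvae (log2, SD over 2 libraries per stage). With expected counts that also carry each primer's total, members lay above the expected count in both stages, at 130% in adults and 141% in larvae (log2 0.38 ± 0.035 and 0.49 ± 0.016, SD over 2 libraries per stage). Across 55992000 the adult value of 51.7% of expected, set against all pairs of the region had no counterpart of that size against pairs of the same blocks, where the direction depended on the pairs used, and members lay above the expected count with primer totals.

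A similar comparison was made at 113 positions along the region. Pairs across each position were set against pairs within the 25 kb on its sides, in place of the 2 blocks. At the boundary it gave a log2 ratio of 0.08 in adults and 0.15 in larvae. The blocks had given means of 0.05 and 0.50, so the larvae value depended on the stretch used. The window values at the boundary were not low for the region, where the median over all positions was -0.20 in adults and -0.03 in larvae. In adults the lowest value was -2.95, at -77.6 kb from the boundary, and in larvae it was -1.91, at -18.5 kb and thus inside the middle block. Positions share most of their pairs with their neighbours, so these values describe the profile and carry no test.

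**Figure D5:**
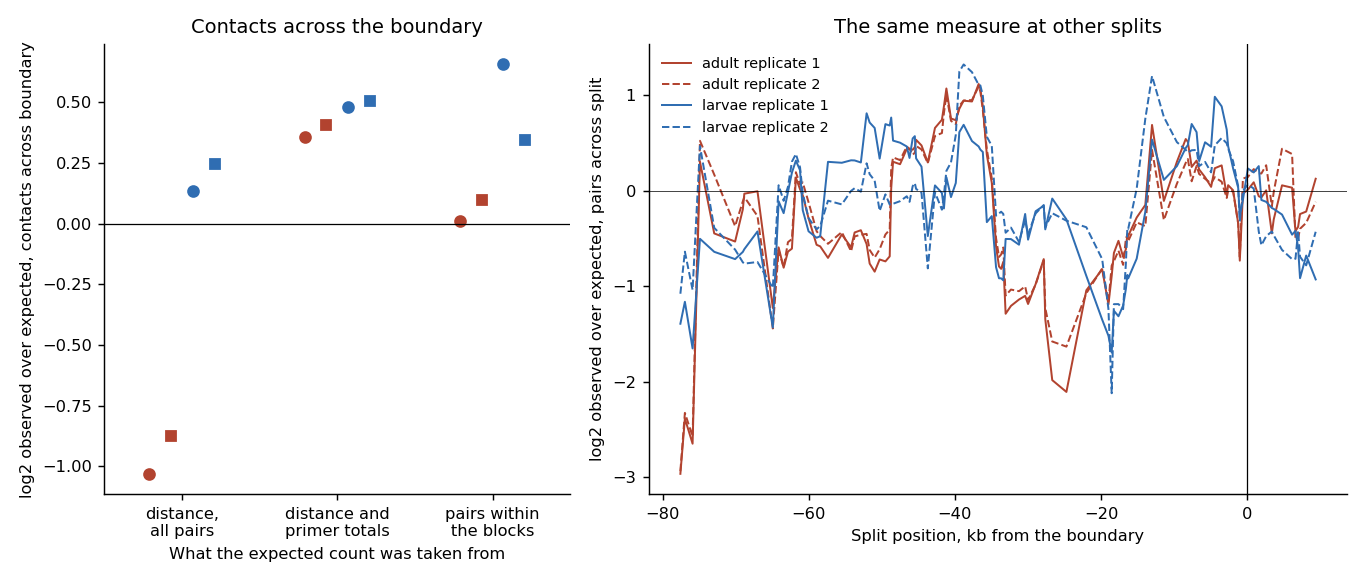
Left, log2 observed over expected of contacts across the boundary in each adult (red) and larvae (blue) library, circles for replicate 1 and squares for replicate 2, for 3 ways to set the expected count. Right, a similar log2 ratio for pairs across each of 113 positions against pairs within 25 kb on its sides, by position in kb from the boundary. Of the 3 ways shown, the adult points lie below 0 for expected counts from distance over all pairs, and the profile has its lowest values away from 0 kb.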

How the data were processed

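5C libraries of blood cells, 2 from adult fish and 2 from larvae, were grouped by their stage label. The authors deposited a matrix of raw counts per primer pair for each library, in whole numbers and not normalized. The submitters' processing notes name bcl2fastq 1.8.4, Bowtie2 2.2.2 and the build danRer7. Primer coordinates are those of the file headers. Not given in the sources used here are the restriction enzyme, the rule that assigned reads to pairs and whether libraries of a stage had separate templates. The p-values therefore reflect the spread among these 4 libraries, which may be technical.

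Counts were tested in R 4.3.3 with edgeR 4.0.16 (quasi-likelihood test) over all pairs or sums of the series, with stage as the only term. Pairs and primer sums had TMM factors and the filterByExpr filter (minimum count 10, minimum total 15). Sums over blocks and classes of 10 kb had library totals without the 3 pairs of highest count, or the expected counts as offset. The p-values were adjusted by Benjamini-Hochberg and called at 0.05. Standard errors were derived from the quasi-likelihood F. Expected counts from distance were class means without the 3 pairs of highest count, and those with primer totals came from iterative scaling. Intervals and the limit of 3 counts describe counting error alone: the reads are PCR products without molecular identifiers and so not independent molecules.

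The named pairs were up to 8 in each direction with the largest change among those that passed and did not overlap between stages, the 5 strongest of each stage, and the shortest and longest, while the pairs nearest the boundary are given by range and count. The named sums were up to 8 in each direction by adjusted p. The members, rules and lists were chosen with earlier results of these data known. The alternatives tried were DESeq2 1.42.0, other normalizations and filters, thinning, other expected counts, leaving out each library or strong pairs, and the replicate number as a block.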

Additional observations from a re-analysis of the deposited data

How the results depend on the processing

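Of 672 values of 55 single pairs, sums and classes under the alternatives, 597 kept their direction and their side of the threshold, 52 no longer passed, 12 passed only under the alternative and 11 turned direction. Members called higher in adults and in larvae (13 and 20 of 44 tested) numbered 50 and 65 of 216 without a filter. All pairs then gave 914 and 426 of 2508. After thinning every library to the smallest they numbered 2 and 6 of 8 tested, against 40 and 35 of 118 over all pairs. Among pairs with reads in both stages they numbered 0 and 12 of 25, against 56 and 86 of 372 over all pairs. That choice of pairs removes contacts seen in one stage. Leaving out 1 library changed the number of called members and also the number of all pairs called. For the primer sums (8 and 24 of 56 tested) thinning gave 3 and 14 of 28, against 63 and 63 of 281 over all sums. Leaving out 1 library changed these numbers too, and those over all sums. On library totals the 4 distance classes higher in larvae lost their calls when either adult library was left out, as did all other classes. With distance and primer totals 1 class was higher in adults (0 to 10 kb, log2 change 0.91) and 2 in larvae. Over all 58 classes it was 14 and 10. The classes from 40 to 50 kb and 50 to 60 kb turned to 0.51 and 1.04.

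None of the classes that turned direction had passed the test before. With the 3 pairs of highest count kept in, the classes from 40 to 50 kb and 50 to 60 kb turned to 0.11 and 0.29 relative to distance. With 1 library left out the class from 50 to 60 kb ran from -1.47 to 0.71 relative to distance and from -1.40 to 0.63 on library totals, positive without larvae replicate 2, and with TMM it was 0.026. The class from 0 to 10 kb on library totals turned to -0.018 when thinned, and ran from -0.10 to 0.14 with 1 library left out, at -0.048 without adult replicate 2. The cause of these turns was not tested.

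The members' share was 4.51% in adults and 9.33% in larvae without the 3 pairs of highest count, and 4.44% and 8.31% for pairs at least 5 kb apart. In larvae it was 5.69% with equal mirror pairs counted once and 5.57% without the strongest larval pair and its mirror pair, both chosen after seeing the data. Log2 observed over expected from distance was -1.38 in adults and -0.62 in larvae with the 3 pairs of highest count, 0.38 and 0.49 with distance and primer totals, and -0.017 and 0 as a median over pairs, most of which had no reads. It was -0.83 in adults without the primers of the 3 pairs, an alternative added after seeing the data. In larvae it was 0.31 for pairs at least 5 kb apart, 0.061 with mirror pairs counted once and -0.0076 without the strongest larval pair. Against pairs within the blocks the adult value was 0.12 at 1 to 30 kb, -0.29 at 5 to 20 kb, -0.13 without the strongest pairs and 0.20 with mirror pairs counted once, and the larvae value was 0.0013 at 5 to 20 kb.

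The labels do not say whether libraries with the same replicate number were paired, and they were treated as unpaired. Deviations of same-numbered libraries from their stage means correlated at 0.023, which cannot settle this with 2 libraries per stage. With the replicate number as a block 13 members were higher in adults and 18 in larvae, of 44 tested, against 306 and 150 of 679 over all pairs. The members' primer sums and distance classes had the same counts as without it. Of the named results F263-R262 alone no longer passed (adjusted p = 0.119, edgeR). The larvae libraries hold 20801 and 6539 counts, so for a larval contact with no reads the limit of 3 counts is 110 CPM over both libraries.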
